A study of Homo sapiens with 12 samples.

Results

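The response to doxycycline was compared between SH2 and control cells in the 2 sets that hold all 4 conditions, which is 8 of the 12 libraries of the series. All libraries came from the ALDH+ fraction of 697(EU3), an established line of human B-cell precursor leukaemia, that is, from cells with high aldehyde dehydrogenase activity picked with a fluorescent substrate. SH2 cells carry a doxycycline-inducible short hairpin RNA against IGF2BP1 together with an eGFP reporter that doxycycline also switches on. The groups were untreated SH2 cells, doxycycline-treated SH2 cells, untreated control cells and doxycycline-treated control cells, with n = 2 libraries each, 1 from set 2 and 1 from set 4. Per the series' design text, each set is a new sort of ALDH+ cells with its own doxycycline treatment. Treated SH2 cells were sorted a second time, for the reporter, so in SH2 cells this sort and doxycycline cannot be told apart. The labels name the control libraries as the control for doxycycline and do not say whether these cells carry the scrambled hairpin that the protocol mentions. Sets 1 and 3 have no control libraries here. SH2 cells of those sets (4 libraries) took no part in choosing the genes and are given as further values.

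Doxycycline is a tetracycline that switches on inducible promoters. It also acts on cells that hold no such construct, because it binds bacterial-type ribosomes, those of mitochondria included. A hairpin RNA is cut into a short RNA that guides the degradation of matching messengers, and RNAs of this kind can also act on partly matching messengers. The protein IGF2BP1 binds messenger RNAs and affects their stability and translation, and is found mostly before birth and in tumours. A response seen in SH2 and control cells alike can come with the drug or the handling of a set. SH2 cells alone had the induced hairpin against IGF2BP1 and the second sort. Whether doxycycline also induced a scrambled hairpin in control cells is not given by the labels.

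Libraries were 3′ end libraries, in which a gene is read mainly at its last exon. Reads in genes ranged from 2210291 to 3370952 and genes with at least 1 read from 16003 to 17306. The treated SH2 library of set 4 stood apart. Its rank correlation with the untreated SH2 library of its set was 0.891, while the treated and untreated libraries of the other pairs correlated at 0.955 to 0.969. With control libraries it correlated at 0.758 to 0.791, while the other SH2 libraries of sets 2 and 4 correlated with them at 0.805 to 0.871. In that library 6.96% of reads lay outside genes, against 3.25% to 5.26% in the other 7 and 7.17% and 7.73% in SH2 cells of set 3. Each result of SH2 cells in set 4 rests on it, and set 2 values stand beside them. Fitted differences that move by over 1.5 times without this library are given both ways. All 32 genes of a B-lineage list were measured, at a summed level of 3400 to 7120 CPM, that is, reads scaled to a common library size. Control cells differed from SH2 cells before any treatment. Their T and NK cell markers (12 tested) summed to 1867 and 2071 CPM in set 2, untreated and treated, and to 232.5 and 115.3 CPM in set 4, against 150.8 to 205 CPM in SH2 libraries. The part of these markers in the responses below was not tested, and the share of cells of a type and the RNA per cell cannot be told apart in bulk samples.

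The hairpin's target was read first. IGF2BP1 (chromosome 17, 48997412 to 49055650, GRCh38, GENCODE v29) went from 30.3 to 14.7 CPM in SH2 cells of set 2 and from 32.6 to 16.1 CPM in set 4. Control cells had 1.41 and 0.95 CPM in set 2 and 0 and 0.377 CPM in set 4, from 3, 3, 0 and 1 reads. The messenger that the hairpin targets was thus near the limit of detection in control cells with or without the drug. The log2 difference between the responses (SH2 minus control) was -1.14 ± 1.32 (SE). The other genes of the series title were not called either. HOXB4 had at most 0.898 CPM in the SH2 libraries of sets 2 and 4. MYB responded by 0.14 and -1.90 in SH2 cells of sets 2 and 4, on the log2 scale, and by 0.26 and -0.36 in control cells. ALDH1A1 responded by -0.67 and -1.05 in SH2 cells and by 0.15 and 0.07 in control cells. Without the treated SH2 library of set 4 the difference went from -0.69 to -0.14 for MYB and from -0.97 to -0.13 for ALDH1A1. IGF2BP3, a paralogue of IGF2BP1, responded by 0.02 and -0.94 in SH2 cells and by -0.16 and -0.27 in control cells.

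No gene passed the test of a different response in SH2 and control cells. Of 11638 genes tested with edgeR's quasi-likelihood test, 0 (0%) had a Benjamini-Hochberg adjusted p under 0.05, with 2 libraries per group, and DESeq2's Wald test also called 0. An unadjusted p under 0.05 was reached by 110 genes (0.945%), with a higher response in SH2 cells for 62 (0.533%) and a lower one for 48 (0.412%). The response of SH2 cells had 0 genes past the adjusted threshold and 416 at an unadjusted p under 0.05 (3.57%), and DESeq2 called 3. The response of control cells had 0 and 57 (0.49%), and DESeq2 called 0. The mean response of both cells had 0 and 323 (2.78%), and DESeq2 called 1. The smallest edgeR adjusted p over these contrasts was 0.9778, so no gene named below passed the test unless another setting is named, and differences are given with their standard errors. Every difference and mean response named below had an edgeR adjusted p of 0.9999. Without the filter on low counts, 2 genes passed in the difference, RPS12 and PTAFR (adjusted p = 0.00113 each).

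Within a set, a response is the log2 CPM of the treated minus that of the untreated library, with 1 library on each side and so no test. Over the 8934 genes whose mean log2 CPM reached 3, 147 (1.65%) were at least 2-fold higher and 159 (1.78%) at least 2-fold lower with doxycycline in SH2 cells of set 2. Control cells of set 2 had 117 (1.31%) and 122 (1.37%). Set 4 held larger responses. SH2 cells there had 975 genes higher (10.9%) and 1180 lower (13.2%), and control cells 185 (2.07%) and 375 (4.2%). The SD of the response over genes was 0.46 and 0.42 for SH2 and control cells in set 2, and 0.92 and 0.54 in set 4. In SH2 sets 1 and 3 it was 0.45 and 0.51, so the SH2 response of set 4 was the widest of the 6 measured.

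SH2 and control cells of 1 set resembled each other more than the same cells in different sets. The Pearson correlation of responses across these genes was 0.165 between SH2 and control cells in set 2 and 0.313 in set 4. It was 0.046 between SH2 cells of sets 2 and 4 and -0.029 between control cells of sets 2 and 4. Over the 4460 genes whose mean log2 CPM reached 5 the same values were 0.229, 0.349, 0.031 and -0.024. None of these comparisons shares a library, and genes are not independent replicates, so the values describe these libraries. Few single genes were shared all the same. In set 2, 6 genes (0.0672%) were 2-fold higher and 6 (0.0672%) 2-fold lower in both cells, which is 5.13% and 4.92% of the genes that moved so in control cells. In set 4, 56 (0.627%) were higher and 149 (1.67%) lower in both cells, or 30.3% and 39.7% of those of control cells and 5.74% and 12.6% of those of SH2 cells. ENG was the 1 gene (0.0112%) shared 2-fold in both sets. Responses were 2-fold in opposite directions for 3 genes (0.0336%) in set 2, RPP40, TRMT10B and TWF1, and for 36 (0.403%) in set 4.

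**Figure D1:**
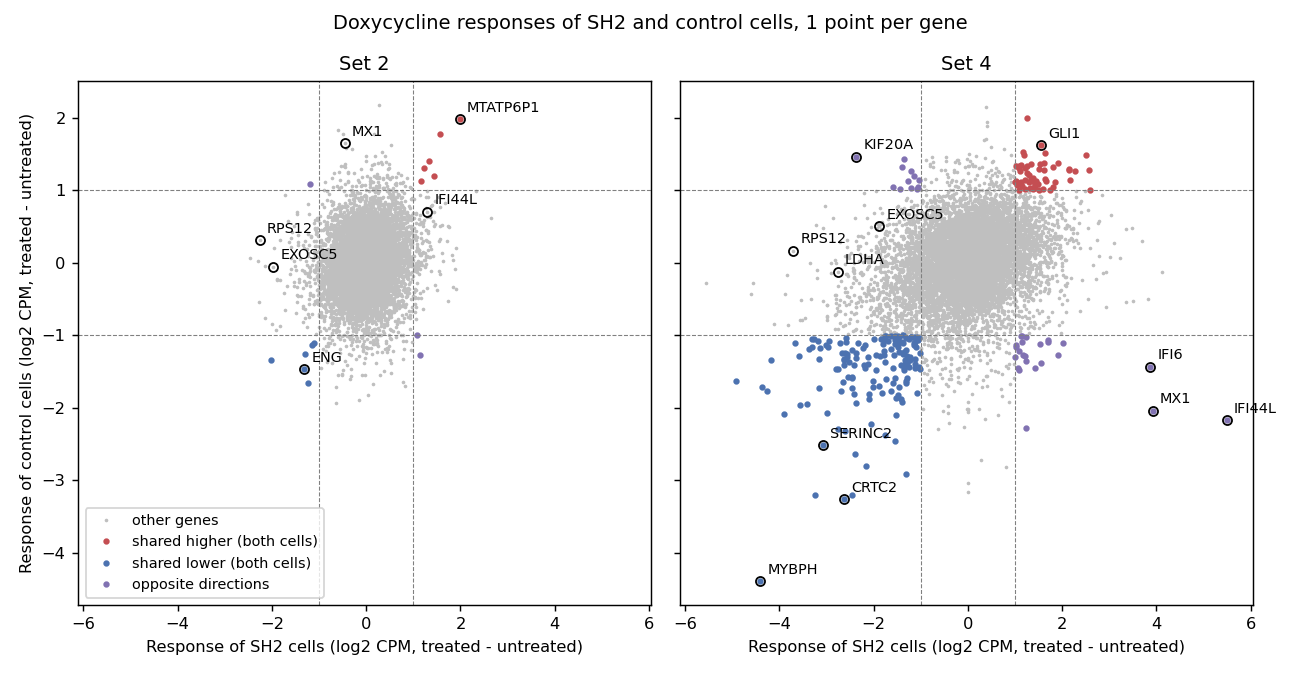
Response of SH2 cells (x axis) against response of control cells (y axis), in log2 CPM treated minus untreated, with 1 point per gene and dashed lines at 2-fold. The cloud is narrow in set 2 (12 genes shared) and wide along the SH2 axis in set 4 (205 shared), and RPS12 and EXOSC5 lie far to the left in both, at control responses of -0.05 to 0.51.

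ENG, or endoglin, is a surface coreceptor of the TGF-beta family. Its level went from 15.6 to 5.67 CPM in SH2 cells and from 7.05 to 1.90 CPM in control cells of set 2. In set 4 it went from 15.3 to 3.01 CPM in SH2 cells and from 20.8 to 6.03 CPM in control cells. All 4 treated libraries lay below all 4 untreated ones. The mean response of both cells was -1.83 ± 0.50 on the log2 scale (SE), and in SH2 sets 1 and 3 the responses were 0.08 and -0.90.

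Counted by sign alone, without the 2-fold limit, 884 of 11638 genes were higher (7.6%) and 801 lower (6.88%) in all 4 responses. Among lists of 20 or more tested genes, the unfolded protein response and cholesterol lists held the largest shares of lower genes and the mitosis list the largest share of higher ones. Where their members share a regulator with a known binding motif, the 250 bases before the start of transcription are shown, read from RefSeq promoters (GRCh38.p14), to put the sequence beside the values. Capitals mark each match to the motif on either strand. The first motif is the ER stress element, CCAAT and CCACG with any 9 bases between them, bound by ATF6 with NF-Y.
HSPA5: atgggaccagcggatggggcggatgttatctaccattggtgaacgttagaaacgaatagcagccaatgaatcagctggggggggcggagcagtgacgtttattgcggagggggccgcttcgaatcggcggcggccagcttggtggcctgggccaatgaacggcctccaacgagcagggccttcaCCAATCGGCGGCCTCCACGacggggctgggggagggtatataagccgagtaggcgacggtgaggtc
CALR: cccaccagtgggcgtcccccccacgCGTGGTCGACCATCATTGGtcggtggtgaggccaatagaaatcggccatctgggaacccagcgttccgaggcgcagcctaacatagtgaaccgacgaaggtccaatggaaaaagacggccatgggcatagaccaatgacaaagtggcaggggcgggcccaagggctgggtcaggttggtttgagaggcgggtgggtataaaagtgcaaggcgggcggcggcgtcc
The HSPA5 stretch is chr9:125241344-125241593 on the minus strand, with its match ending 47 bases before the start, and the CALR stretch is chr19:12938359-12938608 on the plus strand, with its match 206 bases before it. Of 35116 promoters, 26 held this motif in the same window (0.074%). Of the 21 genes of the list below with a RefSeq promoter, 7 held it in any of their promoters: HSPA5, HSP90B1, PDIA6, CALR, CANX, CRELD2 and XBP1. Here and below, list genes are counted by gene and the background by promoter, so the shares differ in unit.

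The unfolded protein response is the set of genes that cells switch on when proteins misfold in the endoplasmic reticulum. Of its 22 tested members, 9 (40.9%) were lower in all 4 responses and 0 higher, beside 6.88% and 7.6% of all genes. Without the treated SH2 library of set 4, 12 (54.5%) were lower in the other 3 responses, beside 11.7% of all genes. The median responses were -0.15 in SH2 and -0.21 in control cells of set 2, and -0.66 and -0.47 in set 4, where the medians of all genes lay within 0.006 of 0. In SH2 sets 1 and 3 they were -0.18 and -0.35, and 8 of the 9 genes were lower there too. The median of the mean response was -0.40, and leaving out the untreated SH2 library of set 4 brought it to -0.06. No member was called, and 0 members had a difference between the cells at an unadjusted p under 0.05.

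MANF, a secreted factor that protects cells from this stress, had a similar response in all pairs. It went from 210 to 141 CPM in SH2 and from 266 to 179 CPM in control cells of set 2, and from 712 to 424 and from 479 to 334 CPM in set 4. Its responses were -0.57, -0.57, -0.75 and -0.52, and -0.54 and -0.81 in SH2 sets 1 and 3. The levels of the sets overlapped, with treated cells of set 4 above untreated cells of set 2. CALR, which encodes the calcium-binding chaperone calreticulin, went from 900 to 592 and from 1185 to 878 CPM in SH2 and control cells of set 2. In set 4 it went from 1807 to 865 and from 1363 to 980 CPM. Its mean response was -0.67 ± 0.28 (SE), and -0.39 without the untreated SH2 library of set 4. HSPA5, the chaperone BiP, went from 1599 to 1426 and from 682 to 598 CPM in SH2 and control cells of set 2, and from 2720 to 1417 and from 1009 to 833 CPM in set 4. In sets 2 and 4 every SH2 library held more HSPA5 than every control library. DNAJC3, a co-chaperone of BiP, had the largest responses of the 9 in SH2 cells. It went from 71.9 to 35.5 and from 181 to 40.8 CPM in SH2 cells, and from 27.7 to 23.1 and from 56.9 to 43.4 CPM in control cells. DNAJB11, SEC61B, CANX, SDF2L1 and PDIA3 complete the 9. Among 35 tested targets of ATF4, the transcription factor of amino acid stress, 7 (20%) fell in all 4 responses, beside 6.88% of all genes. CHAC1, a glutathione-degrading enzyme of that list, was 2-fold lower in both cells of set 2 (from 209 to 84.2 and from 105 to 43.1 CPM) and responded by -0.13 and -0.80 in SH2 and control cells of set 4.

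Mitosis genes made the opposite pattern. Of 37 tested G2 and mitosis genes, 13 (35.1%) were higher in all 4 responses and 1 (2.7%), CCNB1, was lower, beside 7.6% and 6.88% of all genes. Without the treated SH2 library of set 4, 21 (56.8%) were higher in the other 3 responses, beside 13.1% of all genes. The 13 were TPX2, CENPA, CENPF, TOP2A, NUSAP1, KIF23, CENPE, KIF2C, MKI67, CCNB2, PTTG1, CDK1 and CKS1B, and 8 of them were also higher in both SH2 sets 1 and 3. The median responses were 0.31 and 0.13 in SH2 and control cells of set 2, and 0.05 and 0.46 in set 4. In SH2 sets 1 and 3 they were 0.29 and 0.21. CCNB2, a cyclin of the G2 phase, went from 158 to 192 and from 60.6 to 84.8 CPM in SH2 and control cells of set 2, and from 27.2 to 30.8 and from 22.9 to 65.6 CPM in set 4. The median of the mean response, 0.29 over all 8 libraries, became -0.42 when the treated SH2 library of set 2 was left out, 0.59 without that of set 4 and -0.01 without the untreated one of set 4. In SH2 cells of set 4, 6 of the 37 were at least 2-fold lower (CCNB1, CDC20, KIF20A, CKS2, HMMR and BUB1) and 4 higher (CENPA, KIF2C, CDC25C and AURKB), beside 1684 and 1375 of all 11638 genes, so the count of lower ones is near the background. KIF20A was 2-fold higher in control cells of that set (from 3.58 to 11.7 CPM, against 7.78 to 0.669 CPM in SH2 cells).

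FOXM1, a transcription factor that drives mitosis genes, is not a member of that list, and was the gene with the largest smallest response of those higher in all 4 pairs. It went from 39.2 to 87.6 CPM in SH2 and from 78.5 to 151 CPM in control cells of set 2. In set 4 it went from 24.5 to 45.9 and from 57.6 to 90.1 CPM. Each treated library lay above its own untreated one, while the levels of the groups overlapped. The mean response was 0.94 ± 0.31 (SE), and SH2 sets 1 and 3 gave 0.81 and 0.59. LPAR2, a receptor for lysophosphatidic acid, had all 4 treated libraries (31.3 to 37.4 CPM) above all 4 untreated ones (13.6 to 20.7 CPM), with a mean response of 0.98 ± 0.28 (SE). WHSC1, a histone methyltransferase, responded by 0.60, 0.74, 1.22 and 0.79 in SH2 set 2, control set 2, SH2 set 4 and control set 4. SKA2, a protein of the spindle and kinetochore, responded by 0.56, 0.62, 0.92 and 0.64 in the same order. The cell cycle homology region TTTGAA, a promoter motif of late cell cycle genes, was in 13.3% of all promoters on either strand. Counted by gene, with a match in any promoter of the gene, it was in 19 of the 31 list genes with a promoter. The promoter of CCNB2 (chr15:59104896-59105145, plus strand) is shown for it, with the match ending 23 bases before the start.
CCNB2: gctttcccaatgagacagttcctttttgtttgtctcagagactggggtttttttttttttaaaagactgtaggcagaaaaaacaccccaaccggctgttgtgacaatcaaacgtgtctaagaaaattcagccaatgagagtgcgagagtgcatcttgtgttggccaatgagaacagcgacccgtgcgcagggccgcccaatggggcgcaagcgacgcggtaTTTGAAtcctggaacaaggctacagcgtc

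Of 24 tested genes of cholesterol synthesis and uptake, 6 (25%) were lower in all 4 responses and 0 higher. MSMO1, FDFT1, HMGCS1, LSS and DHCR7 were among the 6, and of all genes 6.88% were lower and 7.6% higher. Without the treated SH2 library of set 4, 10 (41.7%) were lower in the other 3 responses, beside 11.7% of all genes. The median responses were -0.12 and -0.08 in SH2 and control cells of set 2 and -0.46 and -0.53 in set 4. LSS, which closes the sterol ring, went from 21.2 to 12.1 and from 49.8 to 37.7 CPM in SH2 and control cells of set 2, and from 22.1 to 7.36 and from 53.3 to 37.3 CPM in set 4 (mean response -0.81 ± 0.26, SE). MSMO1, a sterol demethylase, was lowest in treated control cells of set 4, at 11.3 CPM from 37.9. SH2 sets 1 and 3 had medians of 0.20 and -0.05, and none of the 6 genes was lower in both.

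Transcripts of the mitochondrial genome were looked at because doxycycline acts on mitochondrial ribosomes. Of 15 tested, 4 (26.7%) were higher in all 4 responses (MT-ND6, MT-CO1, MT-ND1 and MT-ND4L) and 1 (6.67%), MT-CO3, was lower. The shares of all genes were 7.6% and 6.88%, and the same signs held in SH2 sets 1 and 3. The list as a whole did not rise in every pair. Its median responses were 0.62 and 0.31 in SH2 and control cells of set 2, and 0.13 and -0.04 in set 4. In control cells of set 4, 8 of the 15 were lower. MT-CO1, a subunit of cytochrome c oxidase, went from 843 to 1842 and from 908 to 1380 CPM in SH2 and control cells of set 2, and from 1138 to 5701 and from 1448 to 1916 CPM in set 4. Its mean response was 1.21 ± 0.36 (SE), and 0.69 without the treated SH2 library of set 4, with 0.47 and 1.02 in SH2 sets 1 and 3. MT-CO3, another subunit of that enzyme, went from 7021 to 6481 and from 12090 to 8384 CPM in set 2 and from 15110 to 8672 and from 14460 to 11850 CPM in set 4. MTATP6P1 is a nuclear near-copy of the mitochondrial gene MT-ATP6, so its reads cannot be assigned with certainty. It was the largest shared response of set 2, at 1.99 in both cells (from 72.5 to 290 CPM in SH2 and from 90.3 to 361 CPM in control cells), with 2.74 and 0.32 in set 4. DESeq2 called its mean response (adjusted p = 0.0115). Of 94 genes of the mitochondrial ribosome and mitochondrial translation, 5 (5.32%) were higher and 11 (11.7%) lower in all 4 responses, beside the same 7.6% and 6.88%.

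**Figure D2:**
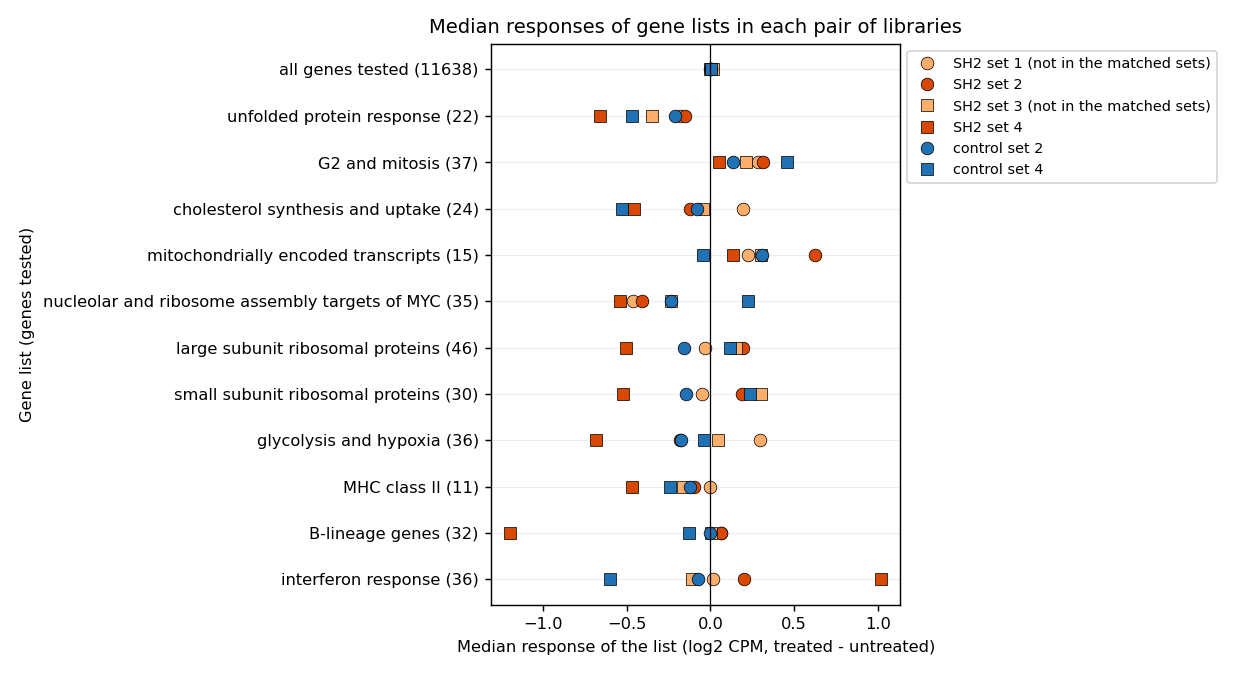
Median response (log2 CPM, treated minus untreated) of gene lists, with the number of genes tested in brackets and 1 symbol per pair of libraries. Unfolded protein response genes lie left of 0 in all 6 pairs (-0.15 to -0.66) and G2 and mitosis genes right of it (0.05 to 0.46), while the SH2 pair of set 4 lies apart for interferon (1.02) and B-lineage genes (-1.20).

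A second group of genes responded in SH2 cells with the response of control cells at least 1 log2 unit away. Such a one-sided response was higher for 81 genes (0.907%) and lower for 100 (1.12%) in set 2, and higher for 554 (6.2%) and lower for 720 (8.06%) in set 4. In both sets it was higher for 7 genes (0.0784%) and lower for 28 (0.313%). Of the 28, 20 (71.4%) were also lower in both SH2 sets 1 and 3, which did not choose them, beside 26.9% of all 8934 genes. Of the 7, 6 (85.7%) were higher in both, beside 30.4%. Without set 4, 35 of the 100 lower genes of set 2 and 13 of the 81 higher ones were at least 2-fold the same way in SH2 set 1 or 3, a count chosen after seeing the data. Of all 8934 genes, 1.88% and 3.44% were 2-fold lower and 1.81% and 1.59% 2-fold higher in sets 1 and 3. None of these differences between cells was called.

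RPS12 (ENSG00000112306, chromosome 6, 132814441 to 132817564, plus strand, GRCh38) encodes a small-subunit ribosomal protein. Of genes one-sided in both sets with a mean log2 CPM above 4 and control responses under 0.5 in size, it had the largest smaller SH2 response. H19 was also one-sided, with larger SH2 responses of -2.27 and -4.60, but had 0 to 2 reads in each control library. In SH2 sets 1 and 3 H19 responded by 0.24 and -0.98. RPS12 went from 8370 to 1747 CPM in SH2 cells of set 2 and from 7750 to 593 CPM in set 4. Control cells went from 10130 to 12620 CPM and from 6608 to 7425 CPM. Both treated SH2 libraries thus lay below the other 6, and those 6 did not separate by treatment. The difference between the responses was -3.04 ± 0.71 (SE), and -2.47 without the treated SH2 library of set 4. SH2 sets 1 and 3 responded by -2.78 and -2.28. Reads on its processed pseudogene RP11-864N7.2 cannot be told apart from RPS12 reads with certainty, and they responded by -1.95 and -3.23 in SH2 and by 0.20 and 0.53 in control cells. Of the other proteins of the small subunit, none of the 29 tested was in the one-sided class in set 2. In set 4 RPS20, RPS10, RPS2 and RPS27 were one-sided lower besides RPS12, which is 5 of 30 beside 8.43% of all genes. The list median there was -0.52 in SH2 and 0.24 in control cells.

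EXOSC5 (chromosome 19, 41386374 to 41397479) encodes a core subunit of the RNA exosome, which degrades and trims RNA. It went from 55.1 to 13.2 CPM in SH2 cells of set 2 and from 59.8 to 15.4 CPM in set 4. Control cells had 53.6 and 51.6 CPM in set 2 and 47.2 and 67.5 CPM in set 4, untreated and treated. Here too both treated SH2 libraries lay below the other 6. The difference was -2.24 ± 0.47 (SE), first by p among genes with a mean log2 CPM above 4 and a lower SH2 response in both sets, and -2.36 without the treated SH2 library of set 4. SH2 sets 1 and 3 responded by -0.91 and -1.49. In the RNA exosome list of 15 tested genes, EXOSC7 was the other one-sided gene, in set 4.

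Several other genes had a lower response in SH2 than in control cells of both sets. DDN, a protein of the kidney and neuronal cytoskeleton, went from 33.6 to 8.69 and from 31.1 to 6.69 CPM in SH2 cells, and from 36.2 to 45.3 and from 57.2 to 81.0 CPM in control cells (difference -2.50 ± 0.59, SE). KARS, the lysyl-tRNA synthetase, went from 218 to 98.2 and from 200 to 83.3 CPM in SH2 cells, and from 156 to 154 and from 165 to 222 CPM in control cells. RAB1B, a small GTPase of transport from the endoplasmic reticulum to the Golgi, went from 48.6 to 17.8 and from 45.8 to 18.4 CPM in SH2 cells, and from 43.2 to 45.0 and from 39.7 to 36.9 CPM in control cells. For DDN, KARS and RAB1B both treated SH2 libraries were the lowest of the 8. HSP90AB1, the constitutive cytosolic HSP90, went from 1764 to 775 and from 1456 to 684 CPM in SH2 cells, and from 1089 to 1009 and from 1103 to 1266 CPM in control cells. SRM, spermidine synthase of the polyamine pathway, went from 116 to 50.2 and from 167 to 37.8 CPM in SH2 cells, and from 228 to 166 and from 225 to 236 CPM in control cells. The responses of HSP90AB1 in SH2 sets 1 and 3 were -1.45 and -0.73, those of KARS -1.34 and -1.09, those of RAB1B -1.58 and -1.14, and those of SRM -1.02 and -1.82. POLR3D, a subunit of RNA polymerase III, responded by -1.53 and -1.22 in SH2 and by -0.32 and 0.42 in control cells, and by -1.03 and -0.38 in SH2 sets 1 and 3. Its level in treated SH2 cells of set 2 (39.65 CPM) lay above that in treated control cells of set 2 (31.34 CPM). DIEXF, a nucleolar protein, responded by -1.32 and -1.58 in SH2 and by 0.21 and 0.01 in control cells, with only -0.22 and -0.07 in SH2 sets 1 and 3.

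**Figure D3:**
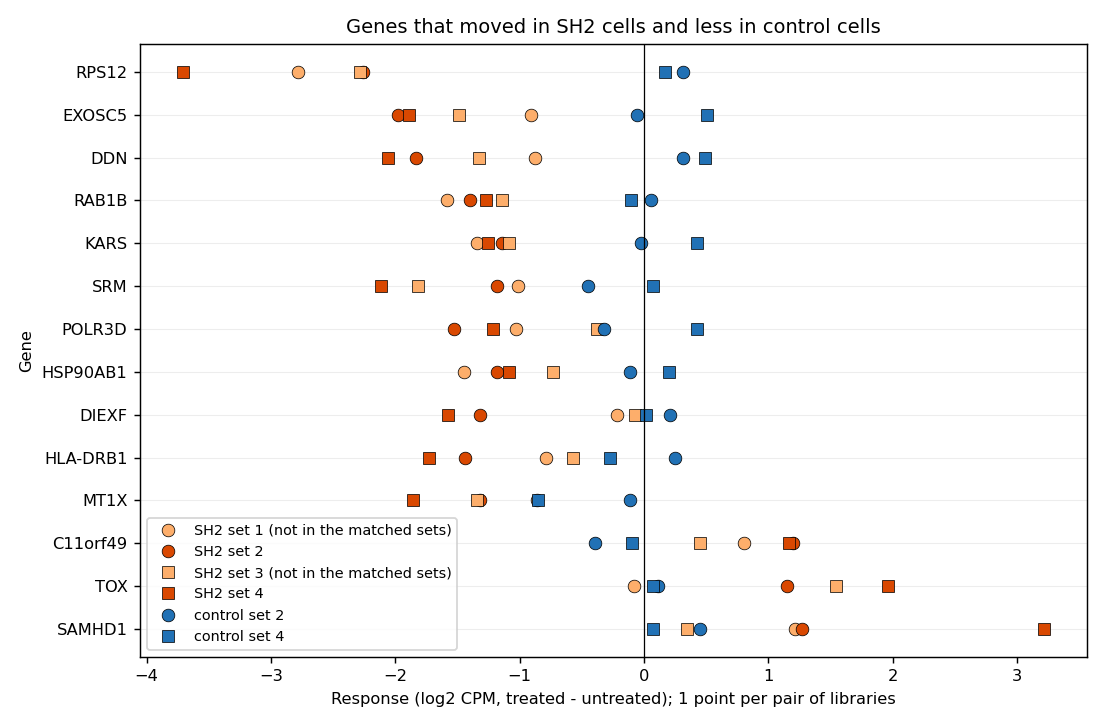
Responses (log2 CPM, treated minus untreated) of genes that moved in SH2 cells and less in control cells, with 1 point per pair of libraries. For RPS12, EXOSC5 and KARS all 4 SH2 points, sets 1 and 3 included, lie left of both control points, which sit between -0.05 and 0.51.

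Of 35 tested nucleolar and ribosome assembly genes, 32 had a lower response in SH2 than in control cells, at a median difference of -0.51, beside 5790 of all 11638 genes. The medians were -0.41 and -0.54 in SH2 cells of sets 2 and 4 and -0.24 and 0.23 in control cells, and -0.46 and -0.24 in SH2 sets 1 and 3. In set 2 RRP12 was one-sided lower in SH2 cells, as were 1.9% of all genes. In set 4 DDX18, NCL, SRM, POLR1B, MYBBP1A, NIP7, TSR1 and NPM1 were, which is 8 of 35 beside 8.43% of all genes. NCL, or nucleolin, went from 544 to 376 and from 583 to 170 CPM in SH2 cells, and from 487 to 432 and from 493 to 480 CPM in control cells. Without the treated SH2 library of set 4 the median difference was -0.33.

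The 28 also held 2 MHC class II and 2 metallothionein genes. HLA-DRB1 went from 84.5 to 30.6 and from 24.5 to 6.69 CPM in SH2 cells, and from 38.5 to 45.9 and from 41.1 to 33.9 CPM in control cells. HLA-DQA1 stood at 10.9 and 4.49 CPM in untreated SH2 cells and at 357 and 319 CPM in untreated control cells. It went to 4.15 and 0 CPM in treated SH2 cells. The annotation holds further IDs for the same HLA genes on other haplotypes. Reads of these genes can be split over them, so both values are uncertain. A further ID of HLA-DRB1 had a difference of 1.03 and one of HLA-DQA1 had 0.69, opposite in sign to the main IDs. Their mean responses were -0.51 and -0.35. For both, the fitted SH2 response was flat, so these differences reflect only a lower response in control cells. That of HLA-DRB1 ran from -0.001 to 6.48 over fits that left out 1 library. Without the treated SH2 library of set 4 the difference went from -1.56 to -0.84 for the main ID of HLA-DRB1 and from -1.69 to -0.65 for that of HLA-DQA1. The median over 11 class II gene IDs, the further IDs included, went from -0.32 to -0.06. MT1X, a metal-binding metallothionein, went from 66.6 to 26.1 and from 49.97 to 13.1 CPM in SH2 cells, and from 38.1 to 35.1 and from 52.6 to 28.6 CPM in control cells. MT1G responded by -1.47 and -2.29 in SH2 and by 0.70 and -0.47 in control cells. Other members did not follow, since MT2A was one-sided higher in SH2 cells of set 4, and MT1F was one-sided higher in control cells of set 2 and lower in both cells of set 4. Metallothioneins are close copies of each other, and counting could divide their reads.

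Of genes with a one-sided higher response, C11orf49 went from 6.48 to 16.2 and from 17.9 to 41.5 CPM in SH2 cells, and from 16.9 to 12.7 and from 21.5 to 19.98 CPM in control cells. TOX, a transcription factor of lymphocyte development, went from 1.47 to 4.53 and from 0.598 to 5.36 CPM in SH2 cells, from 5, 12, 2 and 16 reads. It stood at 49.8 and 53.8 CPM in control cells of set 2 and 15.7 and 16.6 CPM in set 4. SH2 sets 1 and 3 gave TOX responses of -0.08 and 1.54. SAMHD1, which breaks down nucleotides and limits retroviruses, was at least 2-fold higher in SH2 cells of both sets and one-sided in set 4. It went from 2.36 to 7.17 and from 8.38 to 86.7 CPM in SH2 cells, and from 14.1 to 19.6 and from 19.7 to 20.7 CPM in control cells. Its difference of 2.87 ± 1.31 (SE) became 0.17 without the treated SH2 library of set 4. PTAFR, the receptor of platelet-activating factor, had 2, 3, 1 and 66 reads in SH2 libraries (untreated and treated of set 2, then of set 4) and 164, 261, 327 and 284 in control libraries. SLAMF7 had 0, 4, 0 and 6 reads in SH2 cells in the same order and 83, 96, 240 and 86 in control cells, and DTX3 had 0, 1, 0 and 13 against 121, 140, 100 and 170. PTAFR, SLAMF7 and DTX3 had 0 to 2 reads in untreated SH2 cells, and a fold over so few reads depends on the prior count.

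One-sided responses of control cells were fewer than those of SH2 cells, and 2 genes had one in both sets. They were higher for 56 genes (0.627%) and lower for 72 (0.806%) in set 2, and higher for 66 (0.739%) and lower for 114 (1.28%) in set 4. In both sets they were higher for 0 genes and lower for 2 (0.0224%), CCDC136 and EPG5. EPG5, a protein of autophagy, went from 14.1 to 5.70 and from 13.2 to 5.28 CPM in control cells, and from 15.0 to 16.2 and from 9.57 to 9.71 CPM in SH2 cells. Both treated control libraries were the lowest of the 8. CCDC136 went from 11.3 to 4.43 and from 12.2 to 5.28 CPM in control cells, and from 20.03 to 20.4 and from 45.2 to 53.9 CPM in SH2 cells.

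Interferon response genes moved in opposite directions in the cells of set 4. These genes encode antiviral proteins that interferons switch on, and many carry a motif of GAAA and GAAA with any 2 bases between them in their promoters. Over 36 tested members the median response was 1.02 in SH2 and -0.60 in control cells of set 4, and 0.20 and -0.07 in set 2. It was 0.02 and -0.11 in SH2 sets 1 and 3. In set 4, 11 were one-sided higher in SH2 cells (6.94% of all genes), 4 were one-sided lower in control cells (2.44%), and 6 were 2-fold in opposite directions (0.576%), among them OAS1, IFI6, XAF1, IFI44L and MX1. The median difference of 1.24 became 0.17 without the treated SH2 library of set 4, so it rests on that library. T and NK cell markers also moved in control cells of set 4, at a median of -0.90. Of these 12 markers, 6 were 2-fold lower there, beside 739 of all 11638 genes. The part of these markers in the interferon values was not tested.

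The promoters of IFI44L (chr1:78620198-78620447, plus strand) and IFI6 (chr1:27672193-27672442, minus strand) hold this motif 2 and 3 times and are shown since these genes were among the 4 with the widest opposite responses. It was found in 3.02% of all promoters and, counted by gene, in 18 of the 28 list genes with one.
IFI44L: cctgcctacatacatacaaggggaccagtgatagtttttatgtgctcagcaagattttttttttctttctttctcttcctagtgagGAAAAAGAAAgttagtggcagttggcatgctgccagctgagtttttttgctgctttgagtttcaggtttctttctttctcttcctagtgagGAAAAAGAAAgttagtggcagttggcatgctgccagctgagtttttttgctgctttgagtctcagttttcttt
IFI6: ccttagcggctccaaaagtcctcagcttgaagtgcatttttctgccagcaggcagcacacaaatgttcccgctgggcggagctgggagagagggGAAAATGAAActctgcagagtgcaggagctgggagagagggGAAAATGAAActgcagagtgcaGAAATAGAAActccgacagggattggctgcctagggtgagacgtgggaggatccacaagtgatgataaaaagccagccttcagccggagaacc
IFI44L had 2 and 217 reads in untreated and treated SH2 cells of set 4 (0.598 and 72.6 CPM) and 53 and 9 in control cells of that set (19.0 and 3.39 CPM). In set 2 it had 0 and 4 reads in SH2 and 7 and 19 in control cells. MX1, a GTPase that blocks viruses, went from 9.57 to 160 CPM in SH2 and from 7.87 to 1.13 CPM in control cells of set 4. In set 2 it went from 9.72 to 6.80 and from 1.41 to 6.65 CPM, so control cells of the sets moved in opposite directions. IFI6 went from 9.87 to 159 and from 13.9 to 4.52 CPM in set 4, and from 8.25 to 12.8 and from 15.0 to 24.1 CPM in set 2. ISG15, a ubiquitin-like protein, went from 76.6 to 626 CPM in SH2 cells of set 4 and lay between 38.0 and 76.6 CPM in the other 7 libraries. IFIT3 was the list member that was one-sided in both sets, with SH2 responses of 1.15 and 1.95 and control responses of -0.09 and 0.24. It was higher in SH2 sets 1 and 3 as well (2.32 and 0.45). Its SH2 response in set 2 rests on 5 and 12 reads. The fitted difference of IFIT3 went from 1.88 to -0.52 without the treated SH2 library of set 4.

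**Figure D4:**
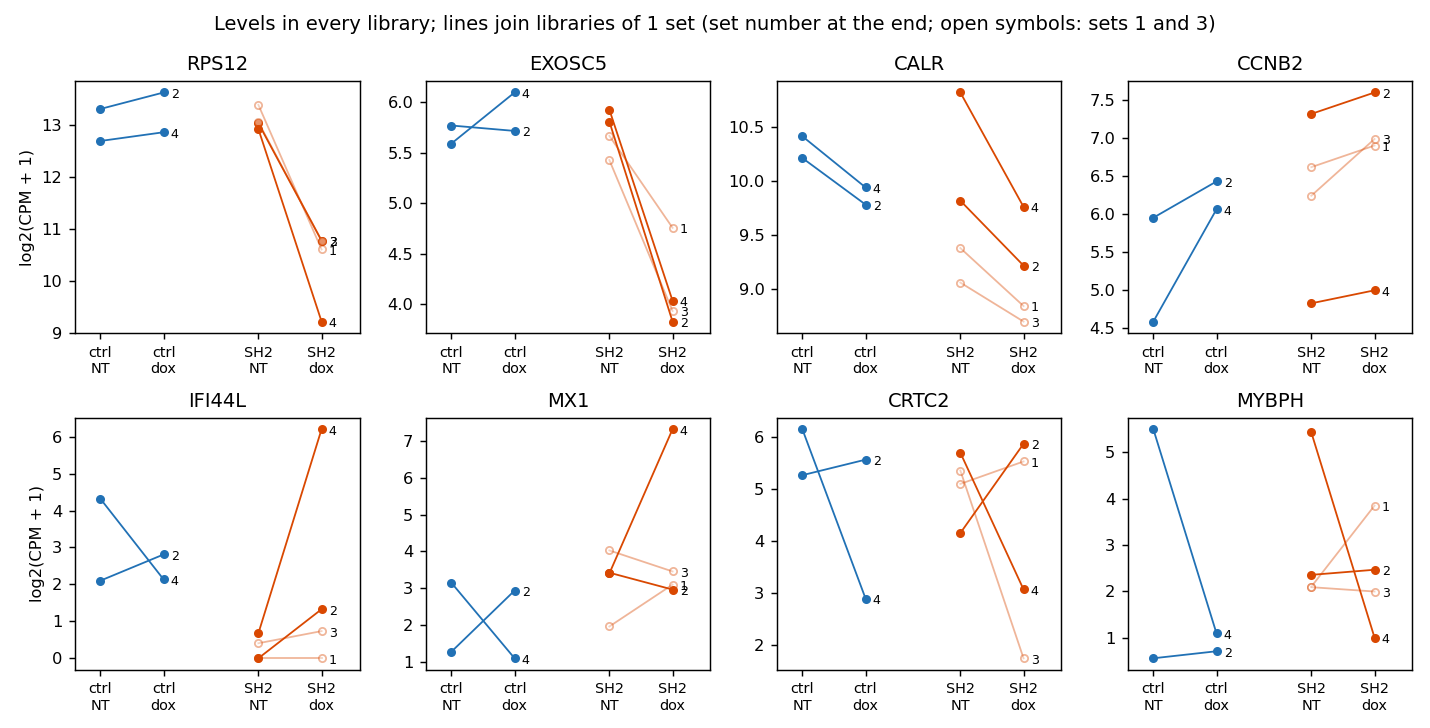
Level of 8 genes, as log2 of CPM plus 1, in every library, with lines joining untreated (NT) and treated (dox) libraries of 1 set and the set number at the end. Filled symbols are sets 2 and 4 and open ones SH2 sets 1 and 3. RPS12 and EXOSC5 drop along all 4 SH2 lines and along neither control line by 2-fold, and CALR slopes down in all 6 pairs.

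Other responses of SH2 cells in set 4 were broad and rest on the library that stood apart. Of 32 B-lineage genes, 18 were at least 2-fold lower in SH2 cells of set 4, at a median of -1.20, while the medians were 0.07 in SH2 cells of set 2 and 0.06 and 0.00 in SH2 sets 1 and 3. In that set 11 were one-sided (8.43% of all genes), among them CD22, BLNK, DNTT, EBF1 and RAG2, and MS4A1 was one-sided higher. CD9, IGLL1, ERG, RAG1, VPREB1 and CD24 were 2-fold lower in control cells of set 4 too, which is 6 of 32 beside 2.28% of all genes. IGLL1, a part of the surrogate light chain of precursor B cells, went from 218 to 33.8 and from 281 to 89.3 CPM in SH2 and control cells of set 4. In set 2 it went from 131 to 216 and from 73.3 to 69.0 CPM. RAG1, a recombinase of antigen receptor genes, went from 40.7 to 3.01 and from 21.1 to 8.67 CPM in set 4, and from 21.2 to 18.9 and from 8.93 to 6.96 CPM in set 2. In the same pair 13 of 46 large subunit ribosomal proteins were at least 2-fold lower and 0 higher (median -0.51). Of 36 glycolysis and hypoxia genes 11 were lower and 3, PKM, ENO2 and EGLN3, higher (median -0.68). Of all 11638 genes 1684 were lower and 1375 higher there. LDHA, lactate dehydrogenase, went from 240 to 34.5 CPM there and from 227 to 176 CPM in SH2 cells of set 2, with 129 and 119 CPM and 282 and 251 CPM in control cells.

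The 149 genes lower in both cells of set 4 were followed into the other sets. In SH2 set 3, 51 of them (34.2%) were at least 2-fold lower, beside 3.44% of all genes, with a median of -0.56. In SH2 set 2, 18 (12.1%) were at least 2-fold higher, beside 1.65% of all genes, and 5 (3.36%) lower. In SH2 set 1 and control set 2 the medians were -0.02 and 0.14. The 56 genes higher in both cells of set 4 had medians of 0.31 in SH2 set 3 and 0.03 to 0.12 in the other pairs.

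CRTC2, a coactivator of CREB, had some of the largest responses of those genes. It went from 51.2 to 7.36 CPM in SH2 and from 70.5 to 6.41 CPM in control cells of set 4, and from 40.1 to 2.33 CPM in SH2 set 3. In SH2 set 2 it went the other way, from 16.8 to 57.8 CPM, and control cells of set 2 had 37.6 and 46.5 CPM. CERS2, a ceramide synthase, responded by -3.57 and -1.96 in SH2 and control cells of set 4, by -2.67 in SH2 set 3 and by 0.95 in SH2 set 2. GTPBP2, MLX, ZNF384 and ATXN2L had the same signs in these 4 pairs. A different kind was MYBPH, a myosin-binding protein of muscle. It went from 42.2 to 1.004 CPM in SH2 and from 44.4 to 1.13 CPM in control cells of set 4, and was at 0.47 to 4.53 CPM in all 4 libraries of set 2. Its untreated level was thus high in both cells of set 4 and in neither of set 2. GZMK, a protease of cytotoxic cells, went from 21.5 to 1.34 and from 36.1 to 3.02 CPM in set 4 and had at most 3.40 CPM in set 2. SERINC2, a membrane protein, was lower in both cells of both sets, with responses of -0.80 and -1.14 in set 2 and -3.08 and -2.52 in set 4 (mean -2.06 ± 0.49, SE), and of -0.18 and 0.05 in SH2 sets 1 and 3. Among the shared higher genes of set 4, GLI1, the transcription factor of hedgehog signalling, went from 5.98 to 19.4 and from 7.87 to 26.4 CPM, and TUBG2, a gamma-tubulin, from 5.68 to 37.1 and from 8.23 to 24.9 CPM.

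**Figure D5:**
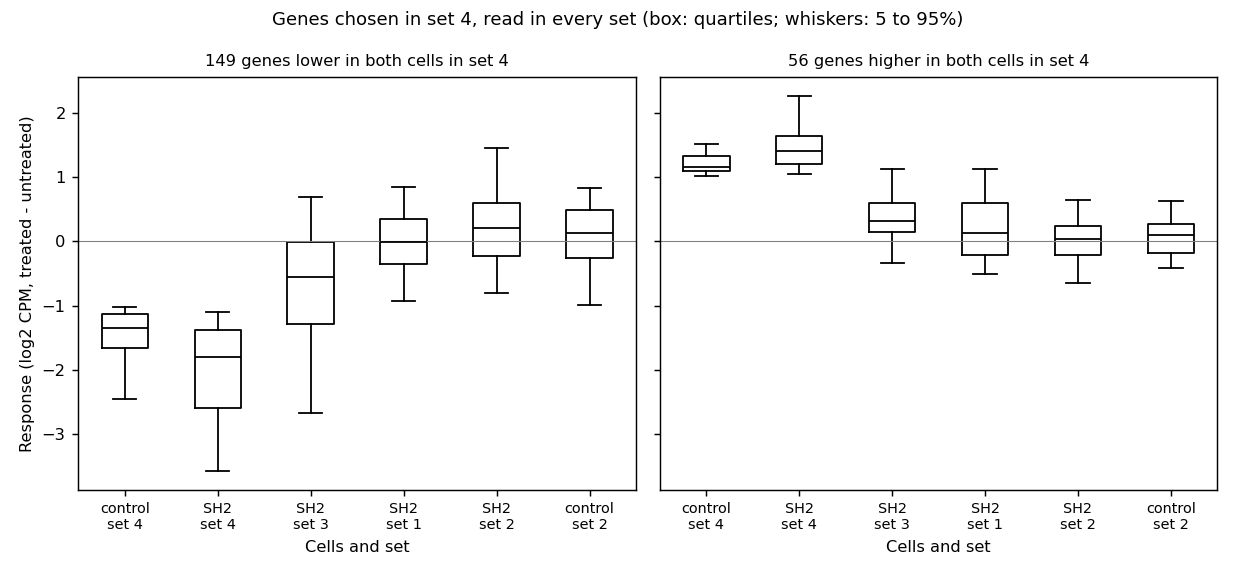
Responses (log2 CPM, treated minus untreated) of the 149 genes lower (left) and the 56 genes higher (right) in both cells of set 4, in each pair of libraries. Boxes give quartiles and whiskers the 5 to 95% range. The set 4 pairs chose the genes, and outside them the 149 genes lie lower in SH2 set 3 (median -0.56) and slightly higher in SH2 set 2 (0.21).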

How the data were processed

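The authors deposited a table of whole-number read counts per gene for each library. HTSeq, STAR, FastQC, DESeq2 and hg38 (GRCh38) are named in the submitters' processing notes, without versions or strand setting. The 64253 gene IDs of each table were kept, and the 5 summary lines were left out of library sizes and tests (3.25% to 6.96% of reads lay outside genes, 1.18% to 1.62% were ambiguous, and 42.2% to 63.8% aligned to several places). Symbols came from the authors' normalized table, whose values were not used, and positions from GENCODE v29.

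Using R 4.3.3 and edgeR 4.0.16, the 8 libraries were filtered with filterByExpr by group (minimum count 10), scaled by TMM and fitted by robust quasi-likelihood with 1 term per group. Contrasts were the SH2 response, the control response, their difference and their mean, with Benjamini-Hochberg adjustment over 11638 genes (threshold 0.05), at a biological coefficient of variation of 0.377. Responses within a set used log2 CPM with a prior count of 3. A one-sided response is at least 2-fold in 1 cell and differs from that of the other cell by as much. The fit was checked on simulated data for the direction of changes put into them, which does not measure its power with 2 libraries per group.

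The comparison, the 36 gene lists and the rules were chosen with earlier results of these data known. Genes were named by rule, up to 8 per direction above a mean log2 CPM of 4 by the p of the difference, by a sign kept in all 4 responses or by a one-sided response in both sets, up to 5 shared and 4 opposite genes per set, title genes and 4 genes per list. Other genes were chosen after their values were seen. The design text gives each set its own sort and treatment. Deviations from group means correlated at 0.508 (control) and 0.301 (SH2) between untreated and treated libraries of a set, and at 0.017 to 0.304 between cells, so the set was tried as a block. Other alternatives were DESeq2 size factors, DESeq2 1.42.0, no filter, all 12 libraries, leaving out each library, and other limits for counts within sets. Some genes of the lists are not reported here by name.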

Additional observations from a re-analysis of the deposited data

Results flagged for a closer look

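Of the genes above a mean log2 CPM of 4 that the naming rule picked for a difference or a one-sided response, 10 had opposite directions. That is, both SH2 responses had one sign and both control responses the other, whatever their size. Some were near 0, such as DIEXF in control cells of set 4 (0.01) and CCDC136 in SH2 cells of set 2 (0.02). The log2 difference of the responses (SH2 minus control) was -3.04 for RPS12, -2.50 for DDN, -1.62 for DIEXF and -1.84 for ARG2, the last a mitochondrial arginase that went from 134 to 119 and from 143 to 61.6 CPM in SH2 cells and from 5.17 to 10.4 and from 7.51 to 19.6 CPM in control cells. It was 2.74 for GIPC1, 2.23 for STK36, 1.55 for PLA2G12A, 1.48 for C11orf49 and 1.46 for CCDC136, and without the treated SH2 library of set 4 it was 1.39, 1.003, 1.34, 0.65 and 0.60 for these genes. The fitted 6.38 for SLAMF7 rests on 0, 4, 0 and 6 reads in SH2 libraries, depends on the prior count and is neither a measured fold nor a bound. GIPC1, an adaptor of receptor trafficking, responded by 0.12 and 1.91 in SH2 and by -1.26 and -1.27 in control cells, and by -0.68 and -0.83 in SH2 sets 1 and 3, against its direction in sets 2 and 4. STK36, a kinase of hedgehog signalling, responded by 0.55 and 1.96 in SH2 and by -0.14 and -0.96 in control cells. PLA2G12A, a secreted phospholipase, responded by 0.63 and 1.29 in SH2 and by -0.57 and -0.39 in control cells. None of these differences passed the edgeR test over all genes (adjusted p = 0.9999 each), and beyond that contrast the opposite directions were not tested.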

How the results depend on the processing

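With 2 libraries per group, counts of called genes moved with the settings. Without the filter on low counts, edgeR called 2 genes in the difference, 23 in SH2 cells, 1 in control cells (DHRS2) and 8 in the mean response. DESeq2's Wald test called 3 in SH2 cells (RPS12, MTATP6P1 and EXOSC5) and 1 in the mean (MTATP6P1). All 12 libraries together gave 2 in SH2 cells, RPS12 and its pseudogene. Leaving out each library gave 0 in the difference, in control cells and in the mean, and 0 to 1 in SH2 cells (PTAFR, without the treated library of set 2). DESeq2 size factors left each count at 0 and moved the median of all genes by at most 0.02. A fit with the set as a replicate block, overall or within each cell, left each count of calls at 0, so pairing changed no call. It did change the counts at an unadjusted edgeR p under 0.05. With the set within each cell as the block, these were 295 for the difference, 801 for SH2 cells, 143 for control cells and 639 for the mean. Without a block they were 110, 416, 57 and 323.

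Counts within sets follow their limits. With a prior count of 1, a minimum log2 CPM of 5 and a 1.5-fold limit in turn, shared genes were 19, 2 and 224 in set 2 and, for the last 2 settings, 60 and 891 in set 4, and 2, 0 and 16 in both sets (12, 205 and 1 as reported). One-sided SH2 genes were 43 and 815 in set 2 and 583 and 2441 in set 4 under the last 2 settings, and 53, 11 and 161 in both sets (181, 1274 and 35 as reported). One-sided control genes were 16 and 630 in set 2 and 40 and 583 in set 4 under the last 2, and 4, 0 and 27 in both sets (128, 180 and 2 as reported). Chosen after seeing the data, 3 responses without the treated SH2 library of set 4 left 1525 genes higher and 1356 lower with 1 sign. Over fits that left out 1 library, the mean response of ZNF703 ran from -2.51 (treated control, set 4) to 0.18 (untreated control, set 4). The difference of IGF2BP3 ran from -0.57 (treated SH2, set 2) to 0.054 (treated SH2, set 4), and that of ALDH1A1 from -3.002 (treated SH2, set 2) to 0.39 (untreated SH2, set 2). The cause was not tested. Values rest on reads, not molecules, and genes with a few reads are the least certain.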
